A study of Mus musculus with 6 samples.

Results

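The genes described here are the 10 main fatty acid synthesis genes of the liver that are driven by the transcription factors SREBP1c and ChREBP, including the genes of both factors themselves. They were picked by name (Srebf1, Mlxipl, Fasn, Acaca, Acacb, Acly, Scd1, Elovl6, Thrsp and Me1), all 10 had a row among the 15454 genes of the count table, and all 10 were among the 12411 genes tested. Liver RNA came from male C57BL/6 mice aged 8 to 10 weeks, kept on chow under a daily light and dark cycle, and every mouse underwent warm ischemia of 75% of the liver followed by reperfusion. The I/R group (3 livers) received vehicle solution, and the I/R+Rk2 group (3 livers) received ginsenoside Rk2, a saponin derived from ginseng, dissolved in vehicle. Both were given ahead of the operation and once more as blood flow returned. No sham-operated liver was analysed here, so each value is that of an injured liver with or without Rk2.

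De novo lipogenesis turns citrate from the mitochondria into palmitate and then into longer and unsaturated fatty acids. In hepatocytes its genes are driven by SREBP1c, a membrane-bound factor whose gene and cleavage respond to insulin and to oxysterol receptors, and by ChREBP, which responds to metabolites of glucose and fructose. Both are known to act on largely the same enzymes, to fall with fasting and to rise with feeding on carbohydrate.

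To show the DNA on which such factors could act, the 250 bases before the annotated start were read for the member genes from a RefSeq promoter table (build GRCm38.p6), which matched 9 of the 10 genes with 13 start sites, numbered along each gene, and held none for Scd1. The searched motifs, on both strands, were the carbohydrate response element, the sterol response element TCACNCCAC, the E-box CACGTG, the CCAAT box and the GC box GGGCGG, the last a binding site of Sp1. The windows printed 5′ to 3′ below are 1 of the 3 of Srebf1 (the one nearest to the gene's end), both of Mlxipl and that of Fasn, with the sterol response element, E-box and CCAAT box (read as ATTGG where it lies on the other strand) in capitals.
Srebf1 start 3, chr11:60210472-60210721, strand -: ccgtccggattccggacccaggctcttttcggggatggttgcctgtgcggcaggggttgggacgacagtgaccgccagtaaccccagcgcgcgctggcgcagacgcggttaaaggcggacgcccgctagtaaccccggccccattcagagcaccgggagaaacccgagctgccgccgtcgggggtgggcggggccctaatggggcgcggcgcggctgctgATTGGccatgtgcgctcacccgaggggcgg
Mlxipl start 1, chr5:135089640-135089889, strand +: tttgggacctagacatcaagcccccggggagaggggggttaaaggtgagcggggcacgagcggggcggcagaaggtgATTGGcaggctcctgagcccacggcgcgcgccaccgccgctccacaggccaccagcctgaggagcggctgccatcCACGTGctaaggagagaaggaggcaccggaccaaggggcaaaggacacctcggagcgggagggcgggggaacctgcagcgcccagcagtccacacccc
Mlxipl start 2, chr5:135106641-135106890, strand +: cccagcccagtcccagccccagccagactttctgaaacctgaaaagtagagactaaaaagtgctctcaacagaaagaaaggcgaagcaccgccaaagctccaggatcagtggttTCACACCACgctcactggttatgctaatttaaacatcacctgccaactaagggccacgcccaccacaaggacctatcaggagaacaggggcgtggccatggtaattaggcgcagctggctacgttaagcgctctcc
Fasn start, chr11:120824548-120824797, strand -: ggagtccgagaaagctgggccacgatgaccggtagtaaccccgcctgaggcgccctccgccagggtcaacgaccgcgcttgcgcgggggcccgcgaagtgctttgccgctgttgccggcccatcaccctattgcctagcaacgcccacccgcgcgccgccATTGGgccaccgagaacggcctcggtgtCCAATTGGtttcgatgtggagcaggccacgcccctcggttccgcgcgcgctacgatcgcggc
The windows of Fasn and of Mlxipl start 1 lie directly upstream of the gene as GENCODE M21 annotates it, and those of Mlxipl start 2 and Srebf1 start 3 lie in introns of their own genes. Fasn held 3 matches to the CCAAT box, bound by the factor NF-Y, and in the pair that reads CCAATTGG the matches overlap on opposite strands. The window of Mlxipl start 2 held the only sterol response element among the 13 windows, from 136 to 128 bases before the start, and that of Mlxipl start 1 the only E-box, from 98 to 93 bases before it. Over all 32851 promoters of that length, 1.05% held the sterol response element, 6.02% the E-box, 33.8% the CCAAT box and 32.7% the GC box. Among the 13 windows of the member genes, 7 held a CCAAT box and 5 a GC box. Not all of the 13 lie upstream of the annotated gene. Those of Srebf1 starts 2 and 3, Mlxipl start 2, Acaca and Me1 start 2 lie in introns. Those of Acacb, Elovl6, Thrsp and Me1 start 1 hold exon bases of their own gene. The carbohydrate response element matched in 0.0974% of all promoters and in 0 of the 13. A match is a stretch of letters and not a shown binding site, and the absence of one says only that these letters are not in this window.

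The libraries held 16809613 to 35618074 counts. CPM below are counts per 1000000 of the library size after TMM scaling (trimmed mean of M values), positive log2 fold changes mean more RNA in I/R+Rk2 and come with their standard error (SE), and adjusted p are from edgeR's quasi-likelihood test over all 12411 genes. A gene is said to have risen or fallen where that adjusted p was below 0.05, which held for 43.9% of the tested genes (20.3% risen and 23.7% fallen). The labelled tissue was checked on 12 hepatocyte markers, whose summed level ran from 68400 to 79500 CPM in I/R and from 104000 to 127000 CPM in I/R+Rk2. Most of that sum was Alb, at 44300 to 52500 CPM in I/R and 68900 to 88100 CPM in I/R+Rk2. Of the 12 markers 10 rose, 1 fell and 1 did not pass, with a median log2 fold change of 0.55, against -0.01 over all tested genes. For 14 markers of infiltrating myeloid leukocytes the sum ran from 677 to 791 CPM in I/R and from 99 to 223 CPM in I/R+Rk2, with 13 fallen and 0 risen. The 8 Kupffer cell markers summed to 63.9 to 99.1 CPM and 48.9 to 62.8 CPM, and 1 of them fell. Fat tissue uses the same lipogenic genes. The defining adipocyte markers Adipoq and Plin1 had 0 counts in 5 of the 6 livers and 5 counts each in I/R+Rk2 replicate 3, the liver in which Cfd was also highest, at 28 counts. Adrb3 had 5, 29 and 11 counts in I/R and 17, 58 and 35 counts in I/R+Rk2 and did not pass (log2 fold change 1.27, SE 0.60, edgeR adjusted p = 0.125), although it did on leaving out replicate 2 of I/R (0.0411). The 6 adipocyte markers with a row in the count table summed to 27.7 to 32.2 CPM in I/R and 13.2 to 13.7 CPM in I/R+Rk2. Most of this was Fabp4, with means of 29.6 and 11.1 CPM, so the lower sum is that of Fabp4 and no measure of the other markers. In whole liver, fewer cells of a type and less RNA per cell cannot be told apart. The part of these marker shifts in the results below was not tested beyond one rescaling on the hepatocyte markers, given further on.

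All 10 fatty acid synthesis genes rose in I/R+Rk2, against 20.3% of all tested genes that rose, and DESeq2 called the same 10 higher, against 21.0% of tested genes. The log2 fold changes ran from 0.84 (SE 0.25) for Acaca to 1.74 (SE 0.33) for Fasn, with a median of 1.15. For 8 of the 10 the rise was over 2-fold as well, which held for 3.17% of tested genes, and for 9 of the 10 the 3 I/R+Rk2 livers all lay above the 3 I/R livers, which held for 27.1% of tested genes (the reverse order held for 30.3% of them and for 0 of the 10).

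**Figure D1:**
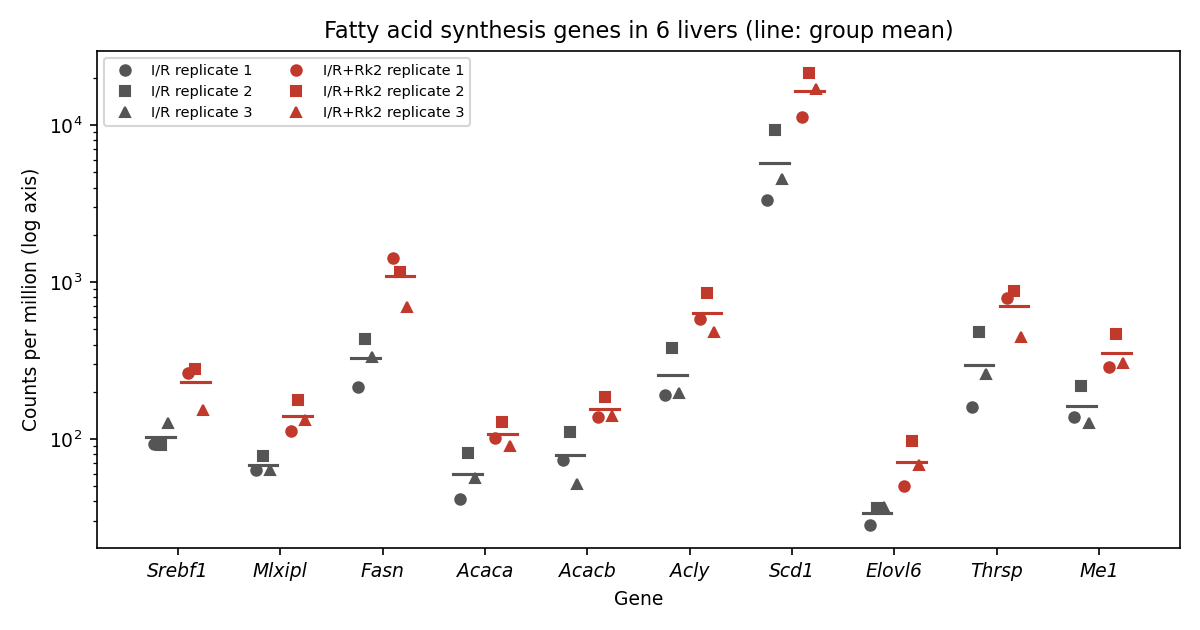
Normalised read counts of the 10 fatty acid synthesis genes in each of the 6 livers, in CPM on a log axis. Grey symbols are I/R livers, red symbols I/R+Rk2 livers, the symbol shape gives the replicate and the line the group mean. The red symbols all lie above the grey ones for 9 of the 10 genes, Thrsp being the exception, and Scd1 stands far above the rest at 3340 to 21400 CPM.

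Srebf1 (chromosome 11, 60199089 to 60222581, minus strand, GRCm38) encodes SREBP1, and a count per gene adds up its forms SREBP1a and SREBP1c. It had 93.5, 90.9 and 126 CPM in I/R replicates 1 to 3 and 265, 279 and 152 CPM in I/R+Rk2 replicates 1 to 3. I/R+Rk2 replicate 3 sat well below its 2 companions but still above each I/R liver. This gave a log2 fold change of 1.16 (SE 0.25, edgeR adjusted p = 0.00878). Its exons share 109 bases with Rai1 on the other strand and 66 bases with the microRNA gene Mir6922, and the strand setting of the counting is not given in the sources used here.

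Mlxipl (chromosome 5, 135089890 to 135138382, plus strand) encodes ChREBP. The I/R livers had 63.0, 78.4 and 63.3 CPM and the I/R+Rk2 livers 112, 178 and 133 CPM. The groups did not overlap, and the I/R livers lay close together, with a coefficient of variation (CV) of 12.8%, the smallest of the 10 genes in that group. Its log2 fold change was 1.05 (SE 0.18, edgeR adjusted p = 0.00428), the lowest adjusted p among the 10. An antisense gene, Gm43500, shares 235 exon bases with it.

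The genes that supply carbon and reducing power came next along the pathway. Acly (chromosome 11, 100476353 to 100528000), the ATP citrate lyase that splits cytosolic citrate into acetyl-CoA, had 192, 379 and 197 CPM in I/R and 580, 847 and 484 CPM in I/R+Rk2. Replicate 2 was the highest liver in each group, without overlap between the groups. The log2 fold change of Acly was 1.32 (SE 0.32, edgeR adjusted p = 0.0144). Me1 (chromosome 9, 86581371 to 86695953), the cytosolic malic enzyme that yields NADPH, had 139, 219 and 127 CPM in I/R and 287, 469 and 305 CPM in I/R+Rk2, again highest in replicate 2 of each group and without overlap. Its log2 fold change was 1.13 (SE 0.26, edgeR adjusted p = 0.0128).

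Both acetyl-CoA carboxylases, which make malonyl-CoA, showed the smallest rises of the 10. Acaca (chromosome 11, 84129672 to 84401651), the cytosolic enzyme whose product is built into fat, had 41.3, 81.6 and 56.4 CPM in I/R and 102, 129 and 90.2 CPM in I/R+Rk2. The highest I/R liver and the lowest I/R+Rk2 liver were only 81.6 and 90.2 CPM, so the gap between the groups was narrow. For Acaca the log2 fold change was 0.84 (SE 0.25, edgeR adjusted p = 0.0311). Acacb (chromosome 5, 114146535 to 114250761), the form at mitochondria whose product restrains fatty acid uptake for oxidation, had 73.5, 111 and 51.5 CPM in I/R and 138, 185 and 140 CPM in I/R+Rk2. The groups were clear of each other, with a log2 fold change of 0.98 (SE 0.27, edgeR adjusted p = 0.0238).

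Fasn (chromosome 11, 120805846 to 120824547), the fatty acid synthase that builds palmitate from malonyl-CoA, had 215, 436 and 333 CPM in I/R and 1430, 1160 and 691 CPM in I/R+Rk2. It was the one gene of the 10 that was highest in I/R+Rk2 replicate 1, and its lowest I/R+Rk2 liver was still well above the highest I/R liver. The log2 fold change of 1.74 (SE 0.33, edgeR adjusted p = 0.00594) was a 3.33-fold rise.

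Thrsp (chromosome 7, 97412938 to 97417730) encodes Spot 14, a small protein that partners in lipogenesis and responds to thyroid hormone and carbohydrate. It had 159, 478 and 258 CPM in I/R and 790, 878 and 449 CPM in I/R+Rk2. I/R replicate 2 lay above I/R+Rk2 replicate 3, so the groups overlapped, which was the case for no other of the 10 genes. The log2 fold change was 1.24 (SE 0.42, edgeR adjusted p = 0.0458), the highest adjusted p of the 10.

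Elongation and desaturation follow palmitate. Elovl6 (chromosome 3, 129532355 to 129638495), the elongase that takes palmitate to stearate, had 28.2, 36.1 and 36.8 CPM in I/R and 50.1, 96.9 and 67.9 CPM in I/R+Rk2. No liver overlapped, and the log2 fold change was 1.09 (SE 0.24, edgeR adjusted p = 0.00989). Scd1 (chromosome 19, 44394455 to 44407879), the desaturase that makes oleate and palmitoleate, had 3340, 9290 and 4550 CPM in I/R and 11200, 21400 and 17100 CPM in I/R+Rk2. I/R replicate 2 came close to I/R+Rk2 replicate 1 but did not reach it. For Scd1 the log2 fold change was 1.53 (SE 0.41, edgeR adjusted p = 0.0213). This one gene took 0.382% to 0.95% of all counts in an I/R liver and 1.09% to 2.03% in an I/R+Rk2 liver, and all 10 genes together 0.496% to 1.14% and 1.46% to 2.43%.

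Scd1 has near relatives whose reads may be shared with it. Scd2 rose as well, with a call that was lost in 8 of the 18 alternatives, from 36.4, 95.9 and 49.8 CPM to 97.1, 156 and 121 CPM (log2 fold change 1.04, SE 0.35, edgeR adjusted p = 0.0484). Scd3 had 0, 7 and 0 counts in I/R and 310, 4720 and 0 counts in I/R+Rk2, so nearly all of its counts sat in I/R+Rk2 replicate 2, the liver in which Scd1 was highest, and it was too unevenly detected to be tested. Even there Scd3 reached only 140 CPM beside 21400 CPM of Scd1.

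**Figure D2:**
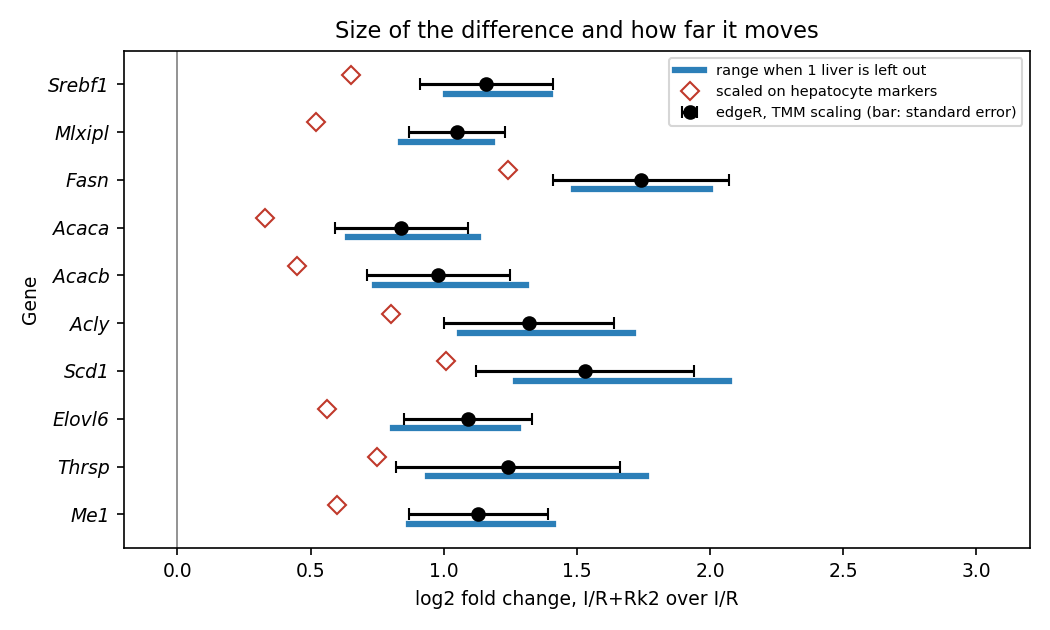
Log2 fold change (I/R+Rk2 over I/R) of each fatty acid synthesis gene. Black points and bars are the edgeR estimate with its standard error, blue lines the range of estimates when each of the 6 livers is left out in turn, and red diamonds the estimate after scaling on the hepatocyte markers. All values lie above 0, from 0.33 for Acaca after that scaling to 2.07 for Scd1 without I/R replicate 2.

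How firmly each call stood differed between the genes. Srebf1, Mlxipl, Fasn and Me1 passed in all 18 alternative fits, with edgeR, DESeq2 or limma adjusted p of at most 0.0497, 0.0221, 0.0259 and 0.0486. Elovl6 missed only with limma on log2(FPKM + 1) without a filter (adjusted p = 0.0646). The other losses came mostly from leaving out single livers. Acly missed when the liver left out was I/R replicate 1 (edgeR adjusted p = 0.0503) or 3 (0.053). Scd1 missed when it was replicate 1 (edgeR adjusted p = 0.058) or 3 (0.0733) of I/R or replicate 2 (0.0677) or 3 (0.0518) of I/R+Rk2. The calls of Acaca and Thrsp were lost most often, in 8 and 6 of the 18, and those of Scd1 and Acacb in 4 each. Acacb missed on leaving out replicate 1 of I/R (0.0763) or replicate 2 of I/R+Rk2 (0.0762), with unfiltered FPKM (0.0671) and with hepatocyte scaling (0.148). Acaca missed on leaving out replicate 1 (0.0642) or 3 (0.0951) of I/R or replicate 1 (0.0545) or 2 (0.101) of I/R+Rk2, in the 3 FPKM fits (0.0741, 0.0764 and 0.124) and with hepatocyte scaling (0.226). Thrsp missed on leaving out replicate 1 (0.0967) or 3 (0.131) of I/R or replicate 1 (0.0999) or 2 (0.131) of I/R+Rk2, with unfiltered FPKM (0.0901) and with hepatocyte scaling (0.128). With unfiltered FPKM 6 of the 10 were called, against 7.27% of the genes in that fit. The estimate stayed above 0 for each of the 10 genes in each of the 18 fits.

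Since the hepatocyte markers moved along with these genes, the libraries were also scaled on those 12 markers, an alternative chosen after the data were seen. The median log2 fold change of the 10 genes was then 0.63 and that of all tested genes -0.53. In that fit 7 of the 10 genes still rose, against 2.67% of tested genes. Fasn kept a log2 fold change of 1.24 and Scd1 one of 1.01, the only 2 of the 10 over 2-fold. Srebf1 came to 0.65 (edgeR adjusted p = 0.0497), Mlxipl to 0.52, Elovl6 to 0.56, Me1 to 0.60 and Acly to 0.80.

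The order of abundance was read per transcript length, from the deposited FPKM, in which fragments are divided by transcript length and by library depth. In I/R, Scd1 led with 1160 ± 598 FPKM, followed by Thrsp with 228 ± 117 and Acly with 62.9 ± 23.1 FPKM (SD, n = 3). Me1, Fasn and Srebf1 came next with 48.6, 40.6 and 35.1 FPKM, and then Mlxipl with 22.5 FPKM. Acaca, Acacb and Elovl6 closed the order with 10.2, 9.40 and 6.70 FPKM. The ranges of the neighbours from Acly to Srebf1 and from Acaca to Elovl6 overlapped, although Acly lay above Me1 in every I/R liver. Scd1, Thrsp, Srebf1 and Mlxipl stood clear of the gene ranked below them. In I/R+Rk2 the means were 3030 ± 901 FPKM for Scd1, 492 ± 166 FPKM for Thrsp and 141 ± 42.8 FPKM for Acly. Fasn, at 113 FPKM, stood ahead of Me1 at 95.5 FPKM there, and Acacb, at 16.6 FPKM, ahead of Acaca at 14.3 FPKM. The ranges of both pairs overlapped in each group. Within I/R+Rk2, Acacb lay above Acaca in each of the 3 livers, but Fasn above Me1 in only 1. Srebf1 reached 81.9 FPKM, Mlxipl 43.2 FPKM and Elovl6 11.6 FPKM.

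Ratios of FPKM within a liver are given as a description, since with 3 livers against 3 an exact two-sided permutation test cannot go below 0.1. Fasn over Acaca was 3.39, 3.92 and 4.76 in I/R but 9.84, 7.52 and 6.11 in I/R+Rk2. Srebf1 over Srebf2, the gene of the cholesterol-directed SREBP2, was 3.25, 3.11 and 5.40 in I/R and 8.02, 10.6 and 7.87 in I/R+Rk2. Mlxipl over Mlx, the gene of the partner with which ChREBP binds DNA, was 1.31, 1.16 and 1.16 in I/R and 2.68, 4.25 and 2.78 in I/R+Rk2. Each of these ratios was higher in every I/R+Rk2 liver than in any I/R liver, as was Scd1 over Scd2, at 103 to 109 in I/R and 130 to 159 in I/R+Rk2. Acaca over Acacb, with means of 1.13 ± 0.251 in I/R and 0.865 ± 0.0468 in I/R+Rk2 (SD, n = 3), had I/R livers at 0.935, 1.04 and 1.41 and I/R+Rk2 livers at 0.918, 0.848 and 0.829, a gap between the groups that was small beside the spread in I/R. Thrsp over its paralog Mid1ip1 was 15.8 ± 6.20 in I/R and 14.1 ± 3.68 in I/R+Rk2, with overlapping livers.

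The livers of one group differed more in these genes than in most. The median CV of the 10 genes was 33.9% in I/R and 29.8% in I/R+Rk2, while the median over the 6963 tested genes with a mean of at least 10 CPM was 8.1% and 10.2%. Each of the 10 lay above that median in both groups. Thrsp and Scd1 varied most in I/R, by 3.01-fold and 2.78-fold between the highest and the lowest liver.

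**Figure D3:**
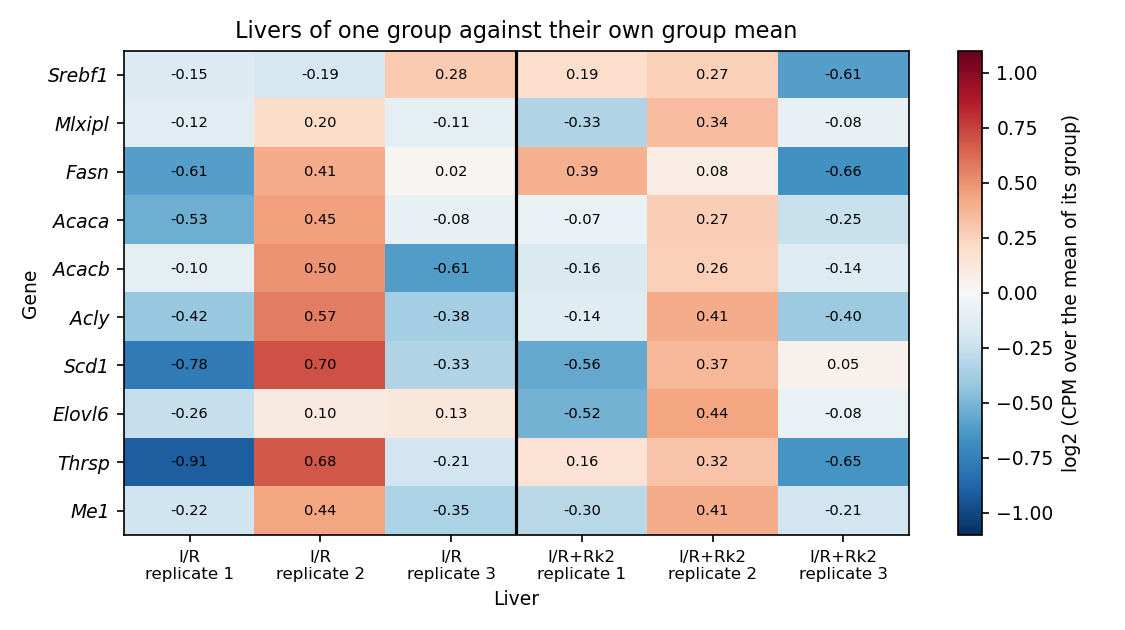
Log2 ratio of each liver's CPM to the mean of its own group, for the 10 fatty acid synthesis genes. Columns are the 3 I/R livers and the 3 I/R+Rk2 livers, red is above and blue below the group mean. I/R replicate 2 was the highest of its group for 8 genes and I/R+Rk2 replicate 2 for 9, while I/R+Rk2 replicates 1 and 3 were each the lowest for 5.

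Much of this spread followed the liver. In I/R, replicate 1 was lowest for 7 genes and replicate 2 highest for 8, the exceptions at the top being Srebf1 and Elovl6, which were highest in replicate 3. Srebf1 was in fact lowest in I/R replicate 2, the liver in which 8 of the other 9 were highest. In I/R+Rk2, replicate 2 was highest for each of the 10 but Fasn, and the bottom of the group divided the genes evenly. Srebf1, Fasn, Acaca, Acly and Thrsp were lowest in replicate 3, whereas Mlxipl, Acacb, Scd1, Elovl6 and Me1 were lowest in replicate 1. With 3 livers a group, this order is a description. Depth moved with part of it, since I/R replicate 1 held the fewest counts of its group (16809613) and I/R+Rk2 replicate 2 the most (35618074). The hepatocyte marker sum, most of it Alb, did too, at 68400, 79500 and 77100 CPM in I/R replicates 1 to 3 and 104000, 127000 and 120000 CPM in I/R+Rk2 replicates 1 to 3. Its range was narrower than the 4350, 11200 and 5800 CPM and the 15000, 25600 and 19600 CPM to which the 10 genes summed. Most of the sum of the 10 genes was Scd1, at 3340, 9290 and 4550 CPM in I/R and 11200, 21400 and 17100 CPM in I/R+Rk2. The part of depth and of the marker sum in the spread was not tested.

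For the genes of the 2 factors and for Fasn, the 5 tested genes of at least 10 CPM with the most similar pattern over the 6 livers were looked up by the Pearson correlation of log2(CPM + 1) among 6962 genes. These correlations describe 6 livers in 2 groups between which 43.9% of tested genes differed. Srebf1 was most like Khdrbs3 (r = 0.992), Nfu1, Tmed10, Tars2 and Cops5. Mlxipl was most like Ebpl (r = 0.996), Mtfr1, Pde8a, Ddo and Cdc42bpb, and Fasn most like Timm23 (r = 0.997), Rad23b, Lrp5 and Gm10273. None of the 15 genes found was another of the 10 fatty acid synthesis genes.

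Around the 10 genes, 8 further lists of the pathway and its control were counted, 112 tested genes in all. Of these 55 rose, 12 fell and 45 did not pass, with a median log2 fold change of 0.48. The counts of each list are to be read against the 20.3% of all tested genes that rose and the 23.7% that fell.

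**Figure D4:**
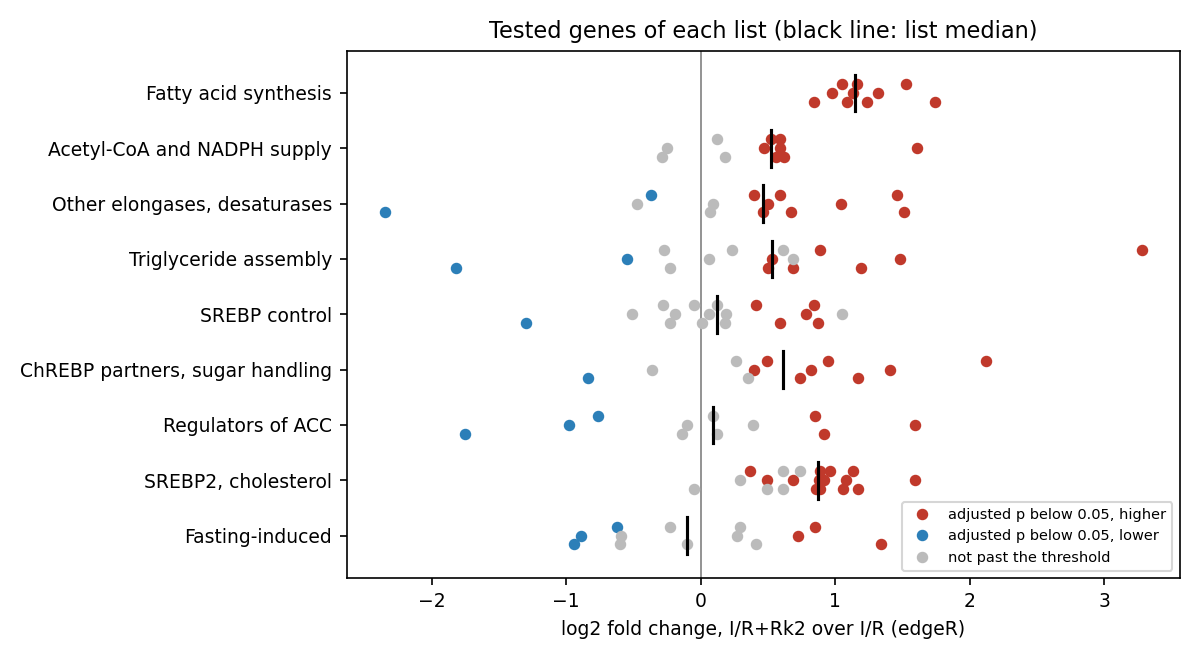
Log2 fold change (I/R+Rk2 over I/R, edgeR) of every tested gene in the fatty acid synthesis group and 8 related lists. Red genes rose, blue genes fell, grey genes did not pass and the black line is the list median. The median is 1.15 for fatty acid synthesis, 0.87 for the cholesterol genes, 0.62 or less for the other lists and -0.10 for the fasting-induced genes.

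Among 17 tested genes that control SREBP, 5 rose, 1 fell and 11 did not pass, with a median of 0.12. Nr1h3, which encodes the oxysterol receptor LXR alpha that switches on Srebf1, had 36.4, 47.4 and 39.7 CPM in I/R and 82.1, 76.6 and 62.1 CPM in I/R+Rk2 (log2 fold change 0.84, SE 0.14, edgeR adjusted p = 0.00377), and missed only with hepatocyte scaling (0.0968). Scap, Insig1 and Insig2, which escort SREBP or hold it in the endoplasmic reticulum, also rose, by log2 fold changes of 0.59, 0.78 and 0.87 (edgeR adjusted p = 0.021, 0.0314 and 0.0318). These 3 calls were lost in 8, 7 and 9 of the 18 alternatives, among them those that left out replicate 1 of I/R or replicate 2 of I/R+Rk2, and Insig2 overlapped between the groups. Srebf2 did not pass, at 43.9, 50.2 and 43.3 CPM in I/R and 61.5, 52.0 and 42.4 CPM in I/R+Rk2 (log2 fold change 0.18, SE 0.14, edgeR adjusted p = 0.336). It passed once the trend on transcript length was removed (0.0442). Nfya, a subunit of the CCAAT-binding NF-Y, was the gene that fell, and it was named after its values were seen. It had 15.6, 13.2 and 12.5 CPM in I/R and 7.61, 2.72 and 6.69 CPM in I/R+Rk2 (log2 fold change -1.30, SE 0.35, edgeR adjusted p = 0.0212), a call lost on leaving out replicate 1 of I/R (0.0722). The genes of the other NF-Y subunits, Nfyb and Nfyc, did not pass (log2 fold changes 0.06 and -0.05, edgeR adjusted p = 0.603 and 0.758).

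On the side of ChREBP and sugar handling, 8 of 12 tested genes rose, 1 fell and 3 did not pass, with a median of 0.62. Pklr, the liver pyruvate kinase and a classic ChREBP target, went from 87.1, 173 and 123 CPM to 371, 405 and 243 CPM (log2 fold change 1.41, SE 0.28, edgeR adjusted p = 0.00725). Every I/R+Rk2 liver lay above every I/R liver. G6pc, the glucose-6-phosphatase that releases free glucose, rose too, with a log2 fold change of 2.12 (SE 0.20, edgeR adjusted p = 0.000593). The gene of the DNA-binding partner, Mlx, had 23.0, 37.4 and 27.9 CPM in I/R and 21.4, 22.7 and 24.9 CPM in I/R+Rk2 and did not pass (log2 fold change -0.36, SE 0.18, edgeR adjusted p = 0.139). It was lower in the 3 limma fits on FPKM (adjusted p = 0.0191, 0.0196 and 0.0272), with library size alone (0.0341) and with hepatocyte scaling (0.00312).

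Acetyl-CoA and NADPH supply was counted in 11 tested genes, of which 7 rose and 4 did not pass, with a median of 0.52. Acss2, which makes acetyl-CoA from acetate, rose most, from 77.5, 264 and 97.4 CPM to 347, 646 and 346 CPM (log2 fold change 1.61, SE 0.49, edgeR adjusted p = 0.0335). Like Acly and Me1 it was highest in replicate 2 of both groups, and its call was lost on leaving out replicate 1 (0.0883) or 3 (0.104) of I/R or replicate 2 of I/R+Rk2 (0.105), with unfiltered FPKM (0.0537) and with hepatocyte scaling (0.0622). Slc25a1, the mitochondrial citrate carrier, rose less, from 113, 147 and 129 CPM to 188, 193 and 176 CPM (log2 fold change 0.52, SE 0.11, edgeR adjusted p = 0.00944), and after scaling on the hepatocyte markers its log2 fold change was 0.01. Its call was also lost in the 3 FPKM fits (limma adjusted p = 0.0679, 0.0702 and 0.0985).

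Of 13 other tested elongase and desaturase genes, 8 rose, 2 fell and 3 did not pass, with a median of 0.46. Elovl5, an elongase of polyunsaturated fatty acids, went from 213, 386 and 202 CPM to 468, 1040 and 770 CPM (log2 fold change 1.51, SE 0.35, edgeR adjusted p = 0.0125). The desaturases Fads1 and Fads2 rose by log2 fold changes of 0.67 and 0.59 (edgeR adjusted p = 0.00335 and 0.00964), which became 0.16 and 0.08 with hepatocyte scaling and did not pass there. Elovl7, an elongase of low level here, had the smallest p of the list and fell, from 4.12, 2.77 and 2.63 CPM to 0.546, 0.681 and 0.614 CPM (log2 fold change -2.35, SE 0.28, edgeR adjusted p = 0.00116). In triglyceride assembly, 7 of 15 tested genes rose, 2 fell and 6 did not pass, with a median of 0.53. The smallest p was that of Gpat3, an acyltransferase of the first step, which fell from 25.9, 23.9 and 24.8 CPM to 7.82, 6.96 and 6.26 CPM (log2 fold change -1.82, SE 0.12, edgeR adjusted p = 0.00024). Acsl1, which activates fatty acids for further use, rose from 250, 306 and 226 CPM to 745, 717 and 716 CPM (log2 fold change 1.48, SE 0.13, edgeR adjusted p = 0.00042), and Agpat2, which adds the second acyl chain, rose by 1.19 (SE 0.13, edgeR adjusted p = 0.000869). Gpam, the mitochondrial acyltransferase of the first step, is known to be driven by SREBP1c. It had 68.9, 133 and 86.9 CPM in I/R and 158, 178 and 129 CPM in I/R+Rk2, with overlap. Gpam did not reach the threshold (log2 fold change 0.69, SE 0.24, edgeR adjusted p = 0.0536), though it passed in 5 of the 18 alternatives, DESeq2 among them (0.0152).

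Among 11 tested genes that regulate acetyl-CoA carboxylase, 3 rose, 3 fell and 5 did not pass, with a median of 0.09, a split near that of all tested genes (20.3% risen and 23.7% fallen). Mid1ip1, the paralog of Thrsp whose product promotes assembly of the carboxylase, rose from 18.7, 29.3 and 30.9 CPM to 115, 75.2 and 47.3 CPM (log2 fold change 1.59, SE 0.33, edgeR adjusted p = 0.00859). Prkaa2, a catalytic subunit of the kinase AMPK that switches the carboxylase off, also rose (log2 fold change 0.92, SE 0.09, edgeR adjusted p = 0.000593). The other catalytic subunit, Prkaa1, went the opposite way, from 17.1, 14.7 and 14.8 CPM to 10.3, 8.53 and 8.78 CPM (log2 fold change -0.76, SE 0.13, edgeR adjusted p = 0.0037), as did the subunit Prkab2 (log2 fold change -1.75, SE 0.46, edgeR adjusted p = 0.0198), whose call was lost on leaving out replicate 2 (0.0601) or 3 (0.064) of I/R. Prkaa1 and Prkab2 were named after their values were seen, and the remaining 3 AMPK subunits tested did not pass. Mlycd, whose product degrades malonyl-CoA, rose by 0.85 (SE 0.09, edgeR adjusted p = 0.000849). Trib1, which in liver is known to restrain lipogenesis, was at 224, 218 and 224 CPM in I/R and 112, 116 and 109 CPM in I/R+Rk2 (log2 fold change -0.98, SE 0.07, edgeR adjusted p = 0.000287).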

How the data were processed

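RNA sequencing of 6 mouse livers (3 I/R, 3 I/R+Rk2) was analysed from 2 deposited tables. The authors aligned reads with HISAT2 2.2.1 and quantified them with StringTie 1.3.3 after FastQC 0.11.5, on mm10, per the submitters' processing notes. They deposited whole-number counts per gene (15454 genes) and FPKM (21948 rows, the authors' own values per transcript length and depth). The annotation, the strand setting and the counting step are not given in the sources used here, and StringTie estimates its read numbers, so low counts are the least certain. Columns were matched to livers by name, and groups come from the labels. The authors' total column equals the sum of the 6 libraries in all 15454 genes and was not otherwise used.

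Counts were tested in R 4.3.3 with edgeR 4.0.16 (filterByExpr, TMM, quasi-likelihood F test, no covariates), with Benjamini-Hochberg adjustment over the 12411 genes. SE is the absolute log2 fold change over the square root of F. The labels give separate livers, and p-values measure the spread between them. The depth of 16809613 to 35618074 counts makes 3 counts worth 0.0888 to 0.184 CPM, which covers counting error only. Alternatives were other scalings, filters on low counts, DESeq2 1.42.0, limma 3.58.1 on log2(FPKM + 1) or log2(FPKM + 0.1), a replicate block, an offset for transcript length and each liver left out. Scripts were tested on simulated data. Gene positions are from GENCODE M21 (GRCm38) and promoter windows from RefSeq. Of the 13 windows 4 held exon bases of their own gene, and none of those is printed.

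The 10 genes and all lists were chosen with earlier results of these data known. Named genes are the 10, a set of known regulators and neighbours, and at most the 3 genes with the smallest p of each list. A few genes picked by these rules are not reported here but remain part of all fits and counts. The list names Pc and Cop1 matched no gene name of the count table and were not analysed here.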

Additional observations from a re-analysis of the deposited data

How the results depend on the processing

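With 3 livers a group and a wide spread between livers, the number of fatty acid synthesis genes past a threshold moved with the setting. Of 10 called in edgeR, 10 were also called with each other scaling on all genes, each other filter on counts, DESeq2 and the transcript length trend removed, and 9 in both filtered FPKM fits. It was 6 with limma on log2(FPKM + 1) without a filter and 5 to 10 when 1 liver was left out, with 5 on leaving out replicate 1 of I/R and 6 on leaving out replicate 3 of I/R or replicate 2 of I/R+Rk2. The count over 2-fold, 8 of 10, was 5 with library size alone and in both filtered FPKM fits, 4 with unfiltered FPKM, 2 with hepatocyte scaling and 3 to 10 when 1 liver was left out, with 3 for each of the same 3 livers. The members' median log2 fold change was 0.63 with hepatocyte scaling, chosen after the data were seen, and 0.94 to 1.36 when 1 liver was left out. The median of all genes was -0.17 with library size alone and 0.16 with the length trend removed. Across genes, the log2 fold change had a Spearman correlation of -0.19 with log2 exonic length.

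Of the other pathway genes, 55 risen became 30 with unfiltered FPKM, 35 to 55 when 1 liver was left out (35 without replicate 3 of I/R) and 14 with hepatocyte scaling, under which 12 fallen became 33. Srebf2 and Usf2 turned to -0.32 and -0.11 with hepatocyte scaling. Pck1 turned to -0.18 in the 3 FPKM fits and to -0.28 without I/R+Rk2 replicate 3 and with hepatocyte scaling. None of these negative values passed, and Pck1 ran from -0.28 to 0.69 over the livers left out (0.69, called, without I/R+Rk2 replicate 1). The cause was not tested.

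Same-numbered livers of the groups did not deviate together over all tested genes (correlations of -0.03, 0.05 and -0.02 over 12411 genes). With 3 livers a group, this cannot exclude a pairing by number. Among the 10 fatty acid synthesis genes, replicate 2 was the highest liver for 8 in I/R and for 9 in I/R+Rk2. With the replicate number as a block, 10 fatty acid synthesis genes were called, their median log2 fold change was 1.13, and 51 other pathway genes rose and 12 fell.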

Other observations

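The cholesterol genes of SREBP2 moved in the same comparison. Of 20 tested, 14 rose, 0 fell and 6 did not pass edgeR's quasi-likelihood test, with a median log2 fold change of 0.87. Sc5d, a late enzyme of cholesterol synthesis, had 266, 378 and 281 CPM in I/R and 594, 744 and 612 CPM in I/R+Rk2 (log2 fold change 1.08, SE 0.16, edgeR adjusted p = 0.00256). Mvd, which makes isopentenyl diphosphate, had 8.34, 12.2 and 9.29 CPM in I/R and 45.2, 24.5 and 20.4 CPM in I/R+Rk2 (log2 fold change 1.59, SE 0.31, edgeR adjusted p = 0.00653). Within I/R+Rk2 the order of the livers was not that of the fatty acid synthesis genes. Replicate 1 was the highest liver for 17 of the 20 cholesterol genes and replicate 3 the lowest for 18, whereas among the 10 fatty acid synthesis genes replicate 1 was highest for 1 and replicate 2 for 9. In I/R, replicate 2 was highest for 17 of the 20 and for 8 of the 10. These are counts over 3 livers a group and were not tested.

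Among 13 tested genes that fasting switches on, 3 rose, 3 fell and 7 did not pass, with a median log2 fold change of -0.10, a split near the 20.3% risen and 23.7% fallen over all tested genes. Pdk4, which blocks the entry of pyruvate into acetyl-CoA, had 66.9, 60.1 and 58.2 CPM in I/R and 33.6, 34.7 and 31.5 CPM in I/R+Rk2 (log2 fold change -0.89, SE 0.09, edgeR adjusted p = 0.000712). Igfbp1, which insulin represses, had 648, 812 and 582 CPM in I/R and 383, 476 and 466 CPM in I/R+Rk2 (log2 fold change -0.62, SE 0.15, edgeR adjusted p = 0.0142). Pck1, the gluconeogenic carboxykinase, had 1560, 1300 and 1410 CPM in I/R but 541, 1790 and 2810 CPM in I/R+Rk2, so the I/R+Rk2 livers lay on both sides of the I/R livers and it did not pass (log2 fold change 0.27, SE 0.50, edgeR adjusted p = 0.684). Its lowest liver, I/R+Rk2 replicate 1, was the one lowest for 11 of the 13 fasting-induced genes and highest for 17 of the 20 cholesterol genes.

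Of 15 tested clock genes, through which the liver times lipogenesis over the day, 4 rose, 5 fell and 6 did not pass, beside 20.3% risen and 23.7% fallen over all tested genes. Arntl, the gene of BMAL1, had 5.63, 8.82 and 5.74 CPM in I/R and 19.9, 25.6 and 25.7 CPM in I/R+Rk2 (log2 fold change 1.81, SE 0.21, edgeR adjusted p = 0.00103). Tef and Per1 had log2 fold changes of -1.28 and -0.56 (edgeR adjusted p = 0.00114 and 0.00402). The hour of collection is not given in the sources used here, and the part of the clock genes in the fatty acid synthesis results was not tested.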
